A study of Mus musculus with 2 samples.

Results

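The genes described here are the 5 receptors of the interleukin-17 (IL-17) family, Il17ra, Il17rb, Il17rc, Il17rd and Il17re, and Traf3ip2, which encodes their shared adaptor Act1. They were taken by symbol from the deposited tables, where all 6 were listed among 27179 genes. The tables hold RPKM, reads per kilobase of gene length scaled to the total reads of the library, so levels of different genes can be set beside each other. RNA came from group 2 innate lymphoid cell progenitors (ILC2p), wild type per the file headings, sorted by flow cytometry from bone marrow; the donors were C57BL/6 mice aged 8 weeks. There were 2 libraries of this single group, each made from a pool of 8 mice and called pool 1 and pool 2 in accession order. Sample codes in the 2 column headings match the title of the opposite library, and if the headings are right, the names pool 1 and pool 2 are exchanged throughout. No other cell type, genotype or treatment was compared, so no difference could be tested, and ± gives the SD over the 2 pools.

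IL-17 family cytokines signal through pairs of single-pass receptors that carry a cytoplasmic SEFIR domain. IL-17RA is the common chain: with IL-17RC it forms the receptor for IL-17A and IL-17F, with IL-17RE that for IL-17C, and with IL-17RB that for IL-25, an alarmin released by tuft cells that activates ILC2. Act1 carries a SEFIR domain of its own, binds the occupied receptor and recruits TRAF6, which leads to NF-κB and MAP kinase activation.

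Depth, estimated from the steps between RPKM values, was 20216146 and 19834586 reads in pools 1 and 2. At that depth, 3 reads in a gene of 1 kb equalled 0.148 and 0.151 RPKM. All 12 markers listed for ILC2 and their progenitors reached 1 RPKM in both pools, as did 40.5% of all genes. Their sums were 3585 and 3616 RPKM. The list was chosen with earlier results of these data known, so this count is no independent check of identity. Transcripts of genes listed as markers of other cells were also present, and their sums differed between the pools. Which cells these transcripts came from, the sorted progenitors included, was not tested. Summed RPKM was 401 and 573 for T cells, 58.8 and 169 for γδ T and type 17 cells, 956 and 2307 for neutrophils, 34.0 and 528 for eosinophils, 110 and 101 for basophils and mast cells, 35.1 and 57.1 for B cells, 112 and 203 for macrophages and monocytes, and 68.2 and 2.82 for marrow stroma.

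Windows around annotated starts of 3 receptor genes are shown (GRCm38.p6, the mm10 build), each from 250 bases before to 50 after the start. They were chosen because they hold the highest member beside a gene that starts next to it, and a tandem pair with unequal levels. Capitals mark matches on either strand to GATAA (GATA factors), TGAGTCA (AP-1), CAGGTG (E proteins) or GGGCGG (GC box). Windows of 4 of the 6 members were found in the reference table. Those of Il17rb and Il17rc are set on the RefSeq gene starts given below. That of Il17re is set on a start downstream of its RefSeq gene start, 113458699, which lies inside the window. The Il17rb window is chr14:30008847-30009146 on the minus strand, that of Il17re chr6:113458521-113458820 and that of Il17rc chr6:113471205-113471504, both on the plus strand.
Il17rb: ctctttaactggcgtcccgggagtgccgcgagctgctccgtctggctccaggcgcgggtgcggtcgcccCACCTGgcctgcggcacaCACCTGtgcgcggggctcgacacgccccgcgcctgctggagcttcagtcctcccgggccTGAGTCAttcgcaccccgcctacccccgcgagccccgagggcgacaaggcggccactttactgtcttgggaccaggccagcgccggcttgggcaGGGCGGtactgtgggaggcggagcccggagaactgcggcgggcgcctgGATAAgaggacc
Il17re: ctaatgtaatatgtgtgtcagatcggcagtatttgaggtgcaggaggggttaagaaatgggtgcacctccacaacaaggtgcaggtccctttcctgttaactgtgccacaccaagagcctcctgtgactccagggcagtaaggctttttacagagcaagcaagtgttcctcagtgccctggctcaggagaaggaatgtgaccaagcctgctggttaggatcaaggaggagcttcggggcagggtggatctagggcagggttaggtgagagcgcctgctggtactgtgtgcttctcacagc
Il17rc: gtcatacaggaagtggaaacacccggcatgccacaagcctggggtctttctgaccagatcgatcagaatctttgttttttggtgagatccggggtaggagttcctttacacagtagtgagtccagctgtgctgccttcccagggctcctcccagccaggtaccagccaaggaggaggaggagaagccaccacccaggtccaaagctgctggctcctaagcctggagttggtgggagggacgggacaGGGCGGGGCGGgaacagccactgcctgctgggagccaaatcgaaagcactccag

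The Il17rb window held 5 matches: 1 GATAA at bases 39 to 43 after the start, 1 TGAGTCA at -104 to -98, 1 GGGCGG at -10 to -5, and 2 E protein boxes, both on the opposite strand. The Il17rc window held 2 overlapping GC boxes across its start, and the Il17re window held no match to these motifs. Of 32851 windows of 300 bases in the table, 25.4% held GATAA, 5.20% TGAGTCA, 20.2% CAGGTG and 35.7% GGGCGG. The Il17rb window had 32 CpG dinucleotides and a GC content of 72%, against 3 CpG for Il17re, 7 for Il17rc and a median of 7 over all windows. A match describes letters only, and binding was not measured.

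Il17rb, which encodes the IL-25-binding chain, was by far the highest member. Pool 1 had 196 RPKM and pool 2 had 202 (mean 199 ± 4.33 RPKM, n = 2), from 8182 and 8278 reads. The pools were nearly equal, with a ratio of pool 2 over pool 1 of 1.03 and a 95% counting interval from just above 1 to 1.06. Such intervals cover counting error only, since reads from PCR are not independent molecules, and leave out variation between mice. Il17rb made up 79.7% of the summed RPKM of the 5 receptor genes in pool 1 and 75.3% in pool 2. It ranked 328th and 297th of all 27179 genes. The genes nearest to it in level over the 2 pools were Ywhab, at 200 and 205 RPKM (distance 0.03 on the log2 scale), Itgb2 at 201 and 208 (0.047) and M6pr at 202 and 207 (0.048), a likeness that rests on 2 values a gene.

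Il17ra, the common chain, reached 43.3 RPKM in the first pool and 53.1 in the second (48.2 ± 6.93, n = 2), from 3474 and 4180 reads. It was thus 1.23 times as high in pool 2 (counting interval 1.17 to 1.28). Il17rb exceeded it 4.54-fold in pool 1 and 3.81-fold in pool 2, a log2 difference of 2.05 ± 0.18. Both chains of the IL-25 receptor were therefore transcribed in the pools, with the ligand-binding chain several times the more abundant at the RNA level per length. Which cells of the pools gave the Il17ra reads was not tested. The genes nearest to Il17ra were Phf23, Ubac2 and Api5, each within 0.025 on the log2 scale.

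Traf3ip2, the adaptor, was at 40.3 and 45.6 RPKM (42.9 ± 3.76, n = 2), from 2334 and 2592 reads, a ratio of 1.13 (1.07 to 1.20). The order of Il17ra and Traf3ip2 was not resolved, because their ranges over the pools overlapped and their means lay 5.26 RPKM apart against a sum of SDs of 10.7. All other neighbours in the order were separated in both pools.

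Il17re, the IL-17C-binding chain, had 6.18 RPKM in the first pool and 12.3 in the second (9.26 ± 4.35, n = 2), from 374 and 732 reads. It was the least even of the 4 members at 1 RPKM or more, with pool 2 1.99 times pool 1 (counting interval 1.76 to 2.27). Of all genes at 1 RPKM or more in both pools, 97.3% differed less between the pools.

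Il17rc, the partner of IL-17RA for IL-17A and IL-17F, was at 0.606 and 0.617 RPKM, with 29 reads in each pool and a counting interval of the ratio of 0.588 to 1.77. A difference in either direction within that interval was not detectable at this depth. Its RNA was 324-fold and 328-fold below that of Il17rb. Il17rd, also called Sef and known as an inhibitor of fibroblast growth factor signalling, was the lowest member per length at 0.0782 and 0.288 RPKM. These values rest on 13 and 47 reads, and their ratio was 3.68 with a wide counting interval of 1.96 to 7.42.

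**Figure D1:**
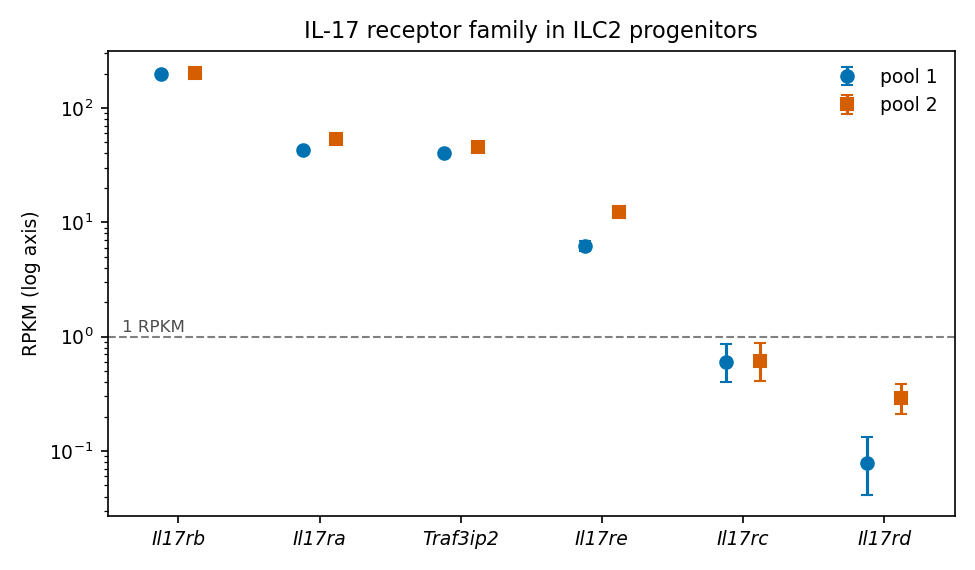
RPKM (log axis) of the 6 genes in pool 1 (circles) and pool 2 (squares), with 95% counting intervals from the recovered reads; the dashed line is 1 RPKM. Il17rb lies near 200 RPKM in both pools, Il17ra and Traf3ip2 between 40.3 and 53.1, Il17re between 6.18 and 12.3, and Il17rc and Il17rd below the line.

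In all, 4 of the 6 members reached 1 RPKM in both pools, as did 40.5% of all listed genes. Of these 4, 0 were 2-fold apart between the pools on the scale of log2(RPKM + 0.1), against a background of 2.56% of 11013 genes. That background was 282 genes, 176 of them higher in pool 2 (1.6% of the 11013) and 106 higher in pool 1 (0.962%). Il17rd was past that fold at 1.12 but below 1 RPKM, so it was not counted. Il17re, at 0.98 on this log2 scale against 1 for 2-fold, lay just inside. All 4 were higher in pool 2 in the deposited values, as were 57.3% of the 11013 genes, but Il17rb was level with or just under pool 1 once pool 2 was rescaled by the median ratio of 1.03. The median difference of the 11013 genes was 0.04 (log2), the size of that of Il17rb. With 1 library a side, these differences have no replicate check.

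Some markers of other cells were, like Il17re, higher in pool 2. All 8 markers of γδ T and type 17 cells were higher in pool 2. Il23r, the IL-23 receptor gene, was at 3.52 and 11.1 RPKM, Sox13 at 1.32 and 8.62, Blk at 5.12 and 31.7, Ccr6 at 9.01 and 22.7, Maf at 36.8 and 50.7 and Cd163l1 at 2.78 and 43.7. The defining cytokines were near 0, with Il17a at 0 reads in pool 1 and 1 in pool 2 and Il17f at 6 reads in each, so that its higher RPKM in pool 2 comes from the smaller library total alone. Cd3g and Cd3e, chains of the T cell receptor complex, were at 104 and 195 and at 45.8 and 78.3 RPKM. Trac, the highest T cell marker by mean RPKM, was nearly level at 158 and 166, and Cd4 was at 27.7 and 33.5. The rise was not limited to these lists. All 7 neutrophil, all 5 eosinophil and all 6 B cell markers were also higher in pool 2. Their sums were 2.41, 15.5 and 1.63 times those of pool 1, against 2.87 times for γδ T and type 17 cells. Basophil and mast cell markers (3 of 4 higher in pool 1) and marrow stroma markers (4 of 6) went mostly the other way. Kit, on the progenitor list, had nearly the ratio of Il17re, at 11.1 and 22.0 RPKM. The part of such cells in the level of Il17re was not tested. In sorted cells measured in bulk, fewer cells of a type and less RNA per cell cannot be told apart.

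The ILC2 markers went both ways, with 6 of 12 higher in each pool. The least even high one was Id2, a factor required for innate lymphoid cells, at 709.7 and 287 RPKM. Il1rl1, the receptor of the alarmin IL-33, was 1.51 times and Il7r 1.31 times as high in pool 2, Gata3 0.856 times and Icos 1.02 times. The ratio of Il17rb, 1.03, lay within the range of these 4.

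**Figure D2:**
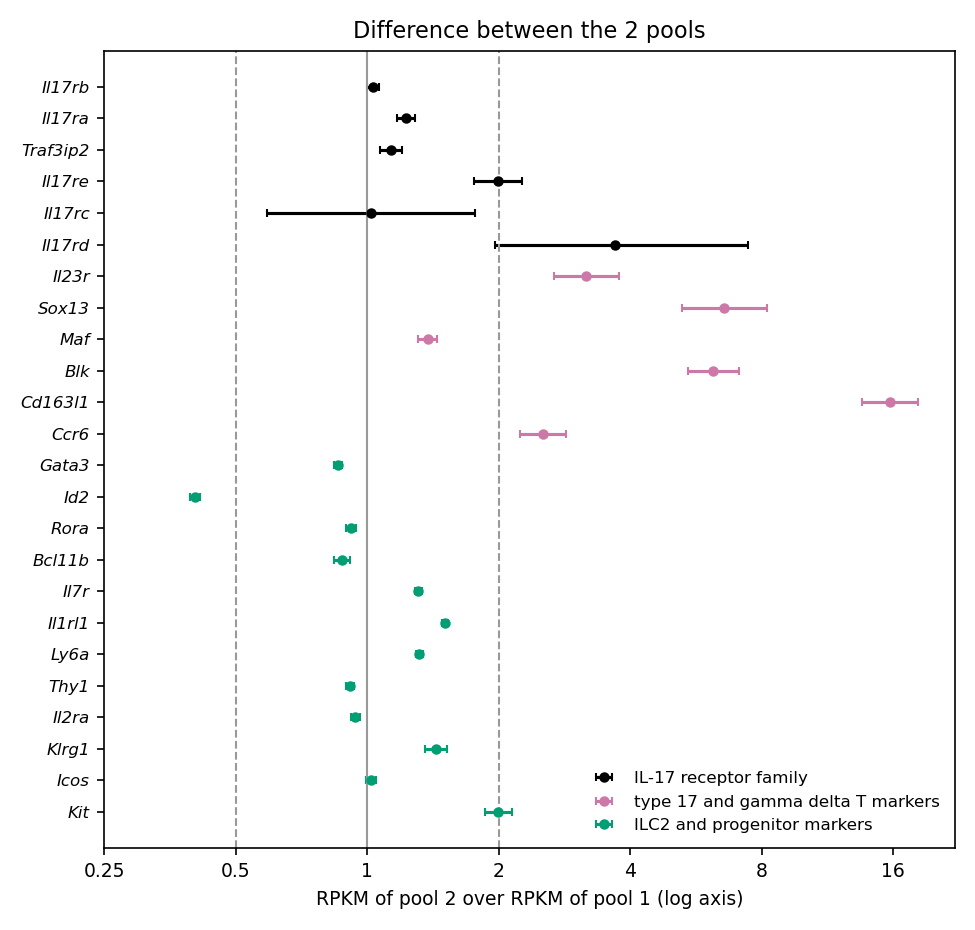
RPKM of pool 2 over that of pool 1 (log axis) for the IL-17 receptor family, for the 6 type 17 and γδ T cell markers at 1 RPKM or more in both pools, and for the ILC2 and progenitor markers; bars are 95% counting intervals and dashed lines mark 2-fold. Il17rb sits at 1.03, Il17re at 1.99, and the type 17 markers between 1.38 and 15.7.

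Among 58 cytokine receptor genes ranked by mean RPKM, Il17rb was 4th, behind Il2rg (700.5 ± 54.6), the shared chain of IL-2, IL-7 and related receptors, Il7r (411 ± 77.9) and Il1rl1 (218 ± 62.4). It was 3rd in pool 1, above Il1rl1 at 173 RPKM, and 5th in pool 2, below Il1rl1 at 262 and Ifngr1 at 248. Il17rb and Il1rl1, receptors for the alarmins IL-25 and IL-33, were thus not ordered the same way in both pools. Crlf2, which with Il7r forms the receptor for the alarmin TSLP, was 14th at 44.0 ± 3.29 RPKM, next to Il17ra at 13th in either pool. Il17re was 30th, Il17rc 44th and Il17rd 50th. Of the 58 genes, 39 reached 1 RPKM in both pools, and 3 of these were 2-fold apart, all higher in pool 2: Il18r1 (17.8 and 45.8 RPKM), Il23r and Il1r1 (2.50 and 5.95). Of all genes, 40.5% reached 1 RPKM in both pools and 2.56% of those were 2-fold apart. Of these 282 genes, 176 were also higher in pool 2.

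**Figure D3:**
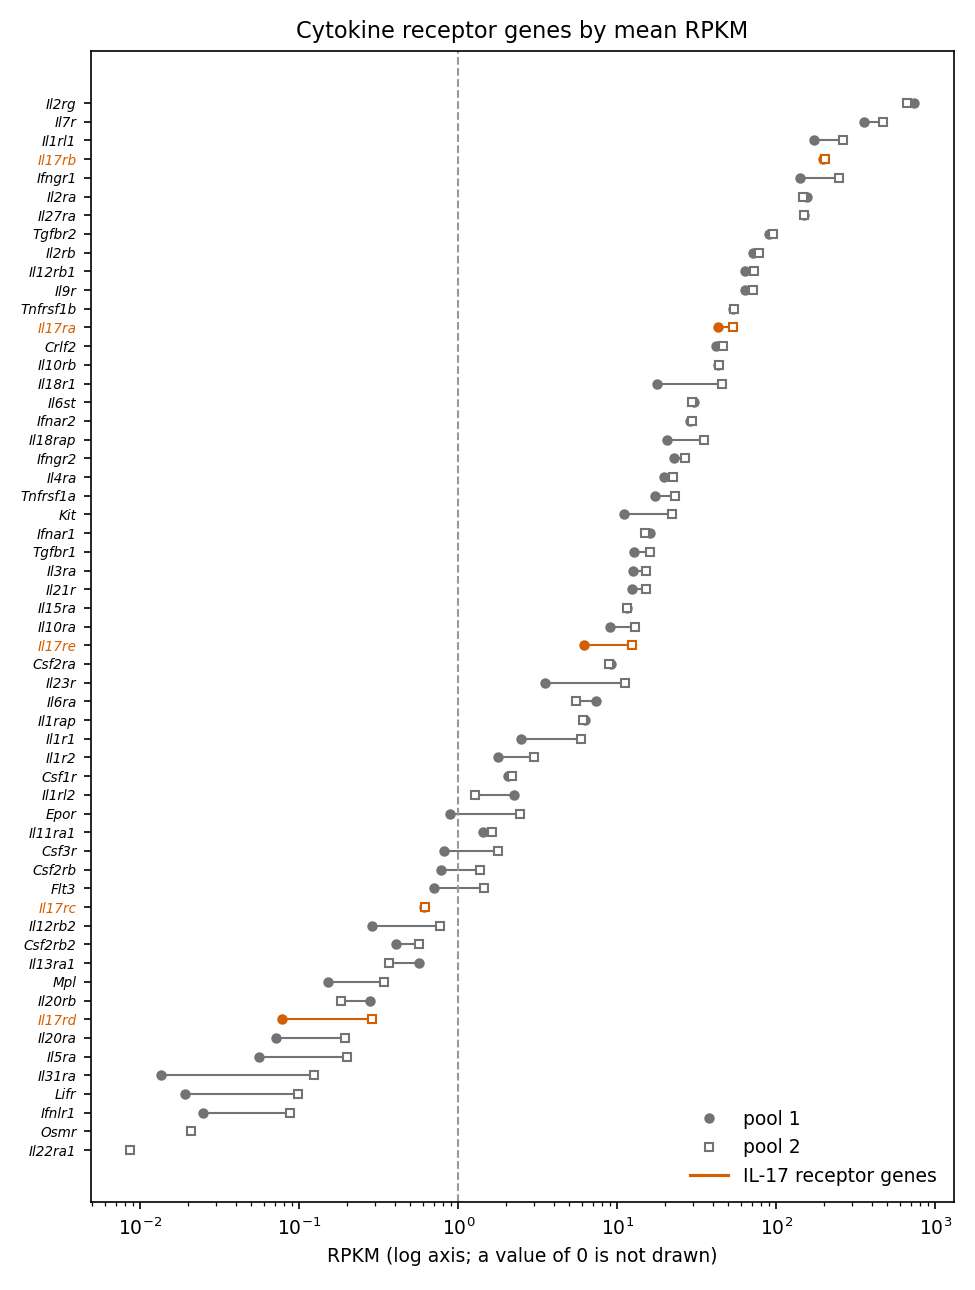
RPKM (log axis) in pool 1 (filled circles) and pool 2 (open squares) of the cytokine receptor genes above 0, in order of mean RPKM, with IL-17 receptor genes in colour. Il17rb is 4th of 58 and its 2 points nearly coincide, whereas those of Il17re and Il17rd are spread.

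The genes beside the members in the genome were read for signs of shared reads. Il17rb (Entrez ID 50905, chromosome 14, 29996168 to 30008896) is transcribed away from Chdh, the choline dehydrogenase gene, whose RefSeq start lies 5 bases from that of Il17rb inside the window shown above. Chdh was at 52.2 and 49.0 RPKM, so the gene on the other side of this start region was also transcribed, at a lower level per length than Il17rb. Actr8, on the other strand, ends 716 bases short of Il17rb in RefSeq. In the GENCODE annotation it overlaps Il17rb, with 141 bases of shared exon. It stood at 28.5 and 26.3 RPKM, below Il17rb, and whether reads were counted by strand is not given in the sources used here.

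Il17re (ID 57890, chromosome 6, 113458699 to 113470758) and Il17rc (ID 171095, 113471455 to 113483163) lie in tandem, 697 bases apart and in the same direction. Il17re was 10.2-fold higher than Il17rc in pool 1 and 19.99-fold in pool 2. The ratio of pool 2 over pool 1 was 1.99 for Il17re, 1.02 for Il17rc and 1.05 for Creld1, which lies 193 bases beyond Il17rc and was at 4.13 and 4.34 RPKM. The RefSeq lncRNA Gm52872, which overlaps Il17re, is not listed in the tables. Jagn1, the neighbour before Il17re, was at 31.7 and 36.2.

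Il17ra (ID 16172, chromosome 6, 120463181 to 120483731) lies between Kdm5a, at 16.5 and 18.4 RPKM, and Tmem121b, at 0.173 and 0.104. Il17rd (ID 171463, chromosome 14, 27038964 to 27107286) lies between Hesx1, at 3.52 and 3.06 RPKM, and Arhgef3, at 39.2 and 44.3, and was below both. Traf3ip2 (ID 103213, chromosome 10, 39612934 to 39655307) is overlapped by the antisense RNA E130307A14Rik, with 293 bases of shared exon in GENCODE. That RNA was at 3.78 and 3.36 RPKM. Without strand, reads within those shared bases cannot be told apart.

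The other genes of the pathway were described by lists. None of the 6 ligand genes reached 1 RPKM. Il25 and Il17b were listed at 0 in both pools, Il17a had 0 reads and 1 read, Il17c 3 and 0, Il17d 2 and 1, and Il17f 6 and 6. No ligand gene thus had more than 6 reads in a pool, and the floor of 3 reads in a gene of 1 kb was 0.148 and 0.151 RPKM.

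All 25 genes of proximal signalling reached 1 RPKM in both pools, and 0 of them were 2-fold apart. Over all genes 40.5% reached that level and 2.56% of those were 2-fold apart, so a count of 0 is near the background. The same shares are the background of the lists below. The highest were the NF-κB subunits Nfkb1 (193 ± 10.8 RPKM) and Rela (98.1 ± 7.46) and the MAP kinase Mapk3 (73.2 ± 2.08). Traf6, the ubiquitin ligase that Act1 recruits, was at 20.9 RPKM in each pool, Traf2 at 35.1 ± 3.05 and Traf5 at 3.51 ± 0.625. Stat5a and Stat5b were at 22.4 ± 0.692 and 32.7 ± 1.21, and Usp25, a deubiquitinase that restrains IL-17 signalling, at 58.9 ± 2.11. Of the 25, 11 were higher in pool 2 and 14 in pool 1, with a median log2 difference of -0.02 against 0.04 for all genes at 1 RPKM or more.

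Messenger RNA stability and feedback were described by 2 further lists. Of 8 stability genes, 7 reached 1 RPKM in both pools and 2 were 2-fold apart, both higher in pool 1: Zfp36, which encodes an RNA-destabilising protein, at 2786 and 120.3 RPKM, and Zc3h12a, which encodes the endonuclease Regnase-1, at 22.5 and 7.33. Srsf1 (60.6 ± 14.8 RPKM), Elavl1 (20.4 ± 2.07) and Arid5a (20.2 ± 3.47), RNA-binding proteins of the IL-17 response, were not. Of 6 feedback genes, all reached 1 RPKM, and Tnfaip3, which encodes the NF-κB inhibitor A20, was 2-fold apart at 131 and 41.8 RPKM. Nfkbia, which encodes IκBα, was the highest at 408 and 226, and Tnip1 was at 59.9 ± 2.83.

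Of 16 genes that IL-17 induces in other cells, 5 reached 1 RPKM in both pools and 3 were 2-fold apart. Nfkbiz, which encodes IκBζ, was at 71.3 and 11.6 RPKM in pools 1 and 2, and the transcription factor gene Cebpb at 36.2 and 8.51. Lcn2, which encodes lipocalin 2, a protein of neutrophil granules, went the other way at 53.4 and 107.6. All 7 neutrophil markers were higher in pool 2, among them Ngp at 121 and 291 RPKM, and their part in Lcn2 was not tested. Tnf (9.81 and 5.85 RPKM) and Cebpd (1.14 and 1.45) reached 1 RPKM in both pools and were not 2-fold apart. The other genes of this list were under 1 RPKM in at least 1 pool and so were not counted as apart. Cxcl2 (3.43 and 0.419 RPKM, 75 and 9 reads), Il6 (26 and 11 reads) and Cxcl1 (13 and 0) were higher in pool 1. Steap4 (0 and 4 reads), Ccl2 (0 and 2) and Mmp13 (0 and 1) were higher in pool 2. Cxcl5, Ccl20, Ccl7, Csf3 and Mmp3 were listed at 0 in both pools.

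Of the 6 cytokines that IL-25 induces in ILC2, 5 reached 1 RPKM in both pools. Csf2 was the highest at 42.4 ± 10.1 RPKM, followed by Il4 (12.3 ± 0.709) and Il13 (5.02 ± 1.78), and Il9 was listed at 0. Il5 (3.32 and 1.41 RPKM) and Areg (5.90 and 2.48) were 2-fold apart, both higher in pool 1.

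Across all these lists, 48 of 67 pathway genes reached 1 RPKM in both pools and 8 were 2-fold apart, 7 of them higher in pool 1, where all genes at 1 RPKM or more gave 282 of 11013, 106 of them higher in pool 1. The AP-1 subunit genes Fos, at 2441 and 49.6 RPKM, and Junb, at 1969.6 and 189.7, were chosen after their values were seen. They were also higher in pool 1, and their relation to the 7 genes was not tested. In the deposited values 0 of the 6 members were higher in pool 1, and after rescaling by the median ratio Il17rb and Il17rc were, by under 0.02 on the log2 scale.

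**Figure D4:**
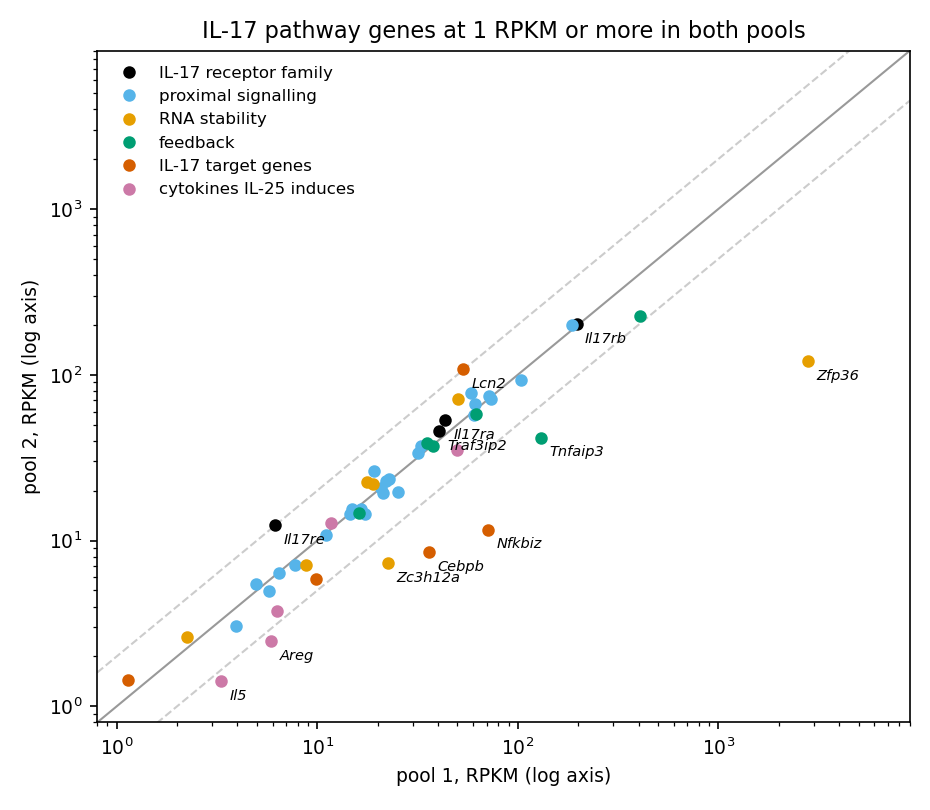
RPKM in pool 1 against pool 2 (log axes) of the IL-17 pathway genes at 1 RPKM or more in both pools; the solid line is equality and the dashed lines mark 2-fold, and members and genes 2-fold apart are named. The 4 members plotted and all 25 proximal signalling genes lie between the dashed lines, with Il17re at the edge, while Zfp36, Nfkbiz, Cebpb, Tnfaip3, Zc3h12a, Il5 and Areg lie below them and Lcn2 just above.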

How the data were processed

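The authors deposited RPKM values (unit of both files) for 27179 Entrez gene IDs in each of 2 libraries. Per the submitters' processing notes, featureCounts, CASAVA 1.8.2, edgeR 3.8.2, edgeR 3.22.0 and mm10 were used, with no roles stated. No source used here gives an aligner or a strand setting.

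No count test was used. Means and SDs were taken over the 2 libraries, and log2 differences on log2(RPKM + 0.1), which understates differences of low genes. Detection required at least 1 RPKM in each library. Library totals were recovered as the largest numbers for which low genes have whole lengths. A whole length from 20 to 130000 bases then gave whole reads in both libraries for 17233 of 17233 genes with a value above 0, within the rounding of the deposited values, and 2.7% of 1000 genes did so with totals wrong by 1 part in 1000. Where several lengths fit, the one nearest to the exon length of RefSeq-linked GENCODE transcripts was taken. These reads sum to 104.5% of either total, so they are estimates. The recovery was also run on simulated data with the true lengths supplied, so that run could not test the choice among lengths. Given the recovered reads, intervals of 95% are exact, Poisson for a level and Clopper-Pearson for a ratio. Another fitting length would change the reads and the width of the intervals.

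Genes named are the members, the 3 highest and every 2-fold gene of each list, the 3 genes nearest in level to Il17rb and Il17ra, genomic neighbours and markers. Other genes were added after their values were seen. A further marker was left out of its list and sums and is not reported here, and markers not named enter their lists' counts and sums or the plot of ratios. The members, lists and motifs were chosen with earlier results of these data known. Coordinates are from RefSeq GRCm38.p6, in which 25275 IDs matched, and the rows that matched no ID have none. Nothing says that the pools came from separate experiments, so the SD may be technical. Python 3.11.15, pandas 2.3.3, NumPy 2.4.6, SciPy 1.17.1 and Matplotlib 3.10.9 were used.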

Additional observations from a re-analysis of the deposited data

How the results depend on the processing

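Of 106 values recomputed under alternatives for 27 results, 87 moved by less than the spread between the pools, their counting interval or, for counts, 1.5 times. Among these, levels and orders taken from 1 pool alone could not do otherwise, since the spread came from the same 2 pools. They are therefore no check of those results. Rescaling the RPKM of both libraries to 1 sum, as TPM has, moved the levels of Il17rb, Il17ra and Il17re to 416, 101 and 19.3. The RPKM sums before were 482269 and 476930, so this change of unit raised every level and is no check of the levels. It also put 1 member, Il17re, 2-fold apart. With no filter 1 member, Il17rd, was 2-fold apart. Rescaling pool 2 by the median ratio turned the log2 difference to -0.0001 for Il17rb and to -0.0145 for Il17rc, so that 4 of 6 members and not 6 were higher in pool 2. Without division by gene length (CPM), Il17rb exceeded Il17ra by 1.11 and ranked 7th of 58 receptors, and Il17rc exceeded Il17rd by 0.19 in place of 1.44 (log2), with Il17rd 47th and Il17rc 48th. With a pseudocount of 1, Il17re exceeded Il17rc by 2.60 in place of 3.64 (log2). Of all genes, 282 were 2-fold apart, against 1535 with no filter and 102 at 5 RPKM. With either pool alone, added after seeing the data, 4 members reached 1 RPKM. No paired analysis was possible because there is 1 group. At 13 to 47 reads, depth limits Il17rc and Il17rd.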
